A study of Mus musculus with 26 samples.

Results

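The genes described here encode digestive enzymes of the pancreatic acinar cell and their helpers, and their signal was followed array by array through islets that were fresh, cultured or taken through a time course. They are Cela3b, Cela1, Cpa1, Cpb1, Ctrb1, Pnlip, Pnliprp1, Cel, Clps and Zg16, which were named by function, with earlier results of these data known. Their ranks and counts among all genes are therefore a description. Each was read from the brightest Affymetrix probe set annotated to that gene alone. A probe set of this kind was found for 9 of the 10 genes, all 9 passed the filter on low values, and they stand among 12580 genes tested. Pnlip, the classical pancreatic lipase, was not analysed here. All 9 also passed that filter on the 22 arrays that were not from fresh islets.

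Islets came from wild-type C57/Bl6J male mice, young (5 weeks) or old (56 weeks), and every group was untreated apart from its culture medium. Fresh islets of each age had 2 arrays. Cultured islets recovered for 1 day at 11 mM glucose and then spent 2 days at 3, 5.5 or 11 mM glucose (2 arrays each for old islets, and 2, 2 and 4 for young) or, for young islets only, at 16 mM (2 arrays). In the time course, young islets were taken at time 0, after an overnight period at 3 mM, and after 1 h and 4 h at 11 mM (2 arrays each), and no arm was kept at 3 mM for the same hours. The labels call the replicates biological. Pooling of mice is neither stated nor denied, and p-values then cover no more than the spread among these particular samples.

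Acinar cells make and store the digestive enzymes of the pancreas as inactive precursors in zymogen granules, and secrete them into the duct on feeding. Islets are endocrine tissue embedded in this exocrine tissue, and islet isolation digests the gland and picks the islets out of it, so that acinar RNA can come along with them. Transcription of acinar enzyme genes is driven by the complex PTF1, in which PTF1A and an E protein bind an E-box and RBPJL binds a neighbouring TC-box.

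The sequence upstream of the genes is shown because their signals moved together across the arrays. RefSeq promoters (build GRCm38.p6) were given for 8 of the 10 genes, all but Clps and Zg16, and the 250 bases before each start were searched for the E-box CANNTG and the TC-box TTTCCC on both strands (on the gene's own strand a TC-box then reads TTTCCC or GGGAAA). An E-box and a TC-box that do not overlap and lie at most 30 bases apart were found in 4 of the 8 windows, against 5.34% of all 32851 windows of this length. In the windows of Cela1 and Ctrb1 the gap between them was 4 bases, a spacing held by 0.174% of all windows. The search rule set only the limit of 30 bases and did not name this spacing. Its share is therefore a description and no measure of how unusual these windows are. An E-box, paired or not, was in 7 of the 8 windows, against 66.2% of all windows. A TC-box was in 4 of the 8, against 21.9%. The 4 windows with a pair follow, 5′ to 3′ on the strand of the gene, with the boxes of a pair in capitals.
Cela1, chr15:100687921-100688170, minus strand: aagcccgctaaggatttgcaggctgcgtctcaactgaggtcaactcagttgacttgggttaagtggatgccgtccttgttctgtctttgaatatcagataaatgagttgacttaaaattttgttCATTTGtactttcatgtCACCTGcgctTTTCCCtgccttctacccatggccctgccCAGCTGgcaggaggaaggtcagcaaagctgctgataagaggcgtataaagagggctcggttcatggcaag
Ctrb1, chr8:111691011-111691260, minus strand: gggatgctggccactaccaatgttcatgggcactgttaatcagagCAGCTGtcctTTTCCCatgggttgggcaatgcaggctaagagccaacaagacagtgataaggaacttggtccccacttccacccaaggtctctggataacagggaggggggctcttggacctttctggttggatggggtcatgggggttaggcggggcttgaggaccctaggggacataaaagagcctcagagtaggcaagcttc
Cpa1, chr6:30638968-30639217, plus strand: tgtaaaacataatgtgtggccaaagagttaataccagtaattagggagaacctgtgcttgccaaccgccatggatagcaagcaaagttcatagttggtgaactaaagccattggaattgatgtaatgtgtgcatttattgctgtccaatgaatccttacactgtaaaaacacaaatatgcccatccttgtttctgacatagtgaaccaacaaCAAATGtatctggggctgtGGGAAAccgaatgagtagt
Cel, chr2:28563404-28563653, minus strand: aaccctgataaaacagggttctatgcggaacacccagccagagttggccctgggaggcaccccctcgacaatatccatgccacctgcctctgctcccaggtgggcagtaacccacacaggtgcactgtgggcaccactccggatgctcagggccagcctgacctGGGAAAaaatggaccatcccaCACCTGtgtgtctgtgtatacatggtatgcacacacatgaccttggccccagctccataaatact
The gap was 13 bases in Cpa1 and 15 bases in Cel. The windows of Cela3b, Cpb1, Pnlip and Pnliprp1 held no such pair. A match describes the letters of the window and does not show that a factor binds there.

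Signals are the authors' MAS5 values on a linear scale, with the same trimmed mean of 150 on every array. The array median, to which low values are compared, was 28 to 42. The Gapdh control gives a 5′/3′ ratio that falls into separate ranges, a division absent from the labels. It was 1.03 to 1.48 on 12 arrays (set A), which hold every old group, the fresh young group and young 11 mM replicates 3 and 4, and 0.1 to 0.277 on the other 14 (set B). Young islets at 11 mM in set A and set B were therefore kept as separate groups, and fresh young islets were compared with replicates 3 and 4 alone. Between these sets at 11 mM, 0 of 9 acinar enzyme genes passed (limma with Benjamini-Hochberg adjustment, 1 with an unadjusted p under 0.05, which was Cel at -1.34, SE 0.54, adjusted p = 0.0523), while 39.7% of all genes did. Beta cell markers, read as a check of the islet label, had a summed signal of 42359 to 61800 in fresh islets.

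For all 9 genes, each of the 4 fresh arrays was above every array of islets cultured for 2 days. The time course reached the fresh values for 2 genes, in replicate 1. At time 0 Ctrb1 (1733) was above both fresh young arrays (1621 and 923), and Cela1 (1442) was above fresh young replicate 2 (1061). At 1 h Ctrb1 (1147) was still above fresh young replicate 2. Of the 36 fresh values none lay below the median of its array, whereas 92 of the 144 values in islets cultured for 2 days did, and 16 of the 54 values of the time course. Averaged over the 9 genes and centred on each gene's mean, the log2 level was 4.31 and 5.29 in fresh old islets and 4.10 and 3.26 in fresh young islets. The next highest arrays were time 0 replicate 1 at 2.06 and 1 h replicate 1 at 1.45. All 16 arrays of islets cultured for 2 days were between -2.02 and 0.11, and no array of them reached the fresh arrays. In bulk islets, fewer acinar cells and less enzyme RNA per acinar cell cannot be told apart.

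**Figure D1:**
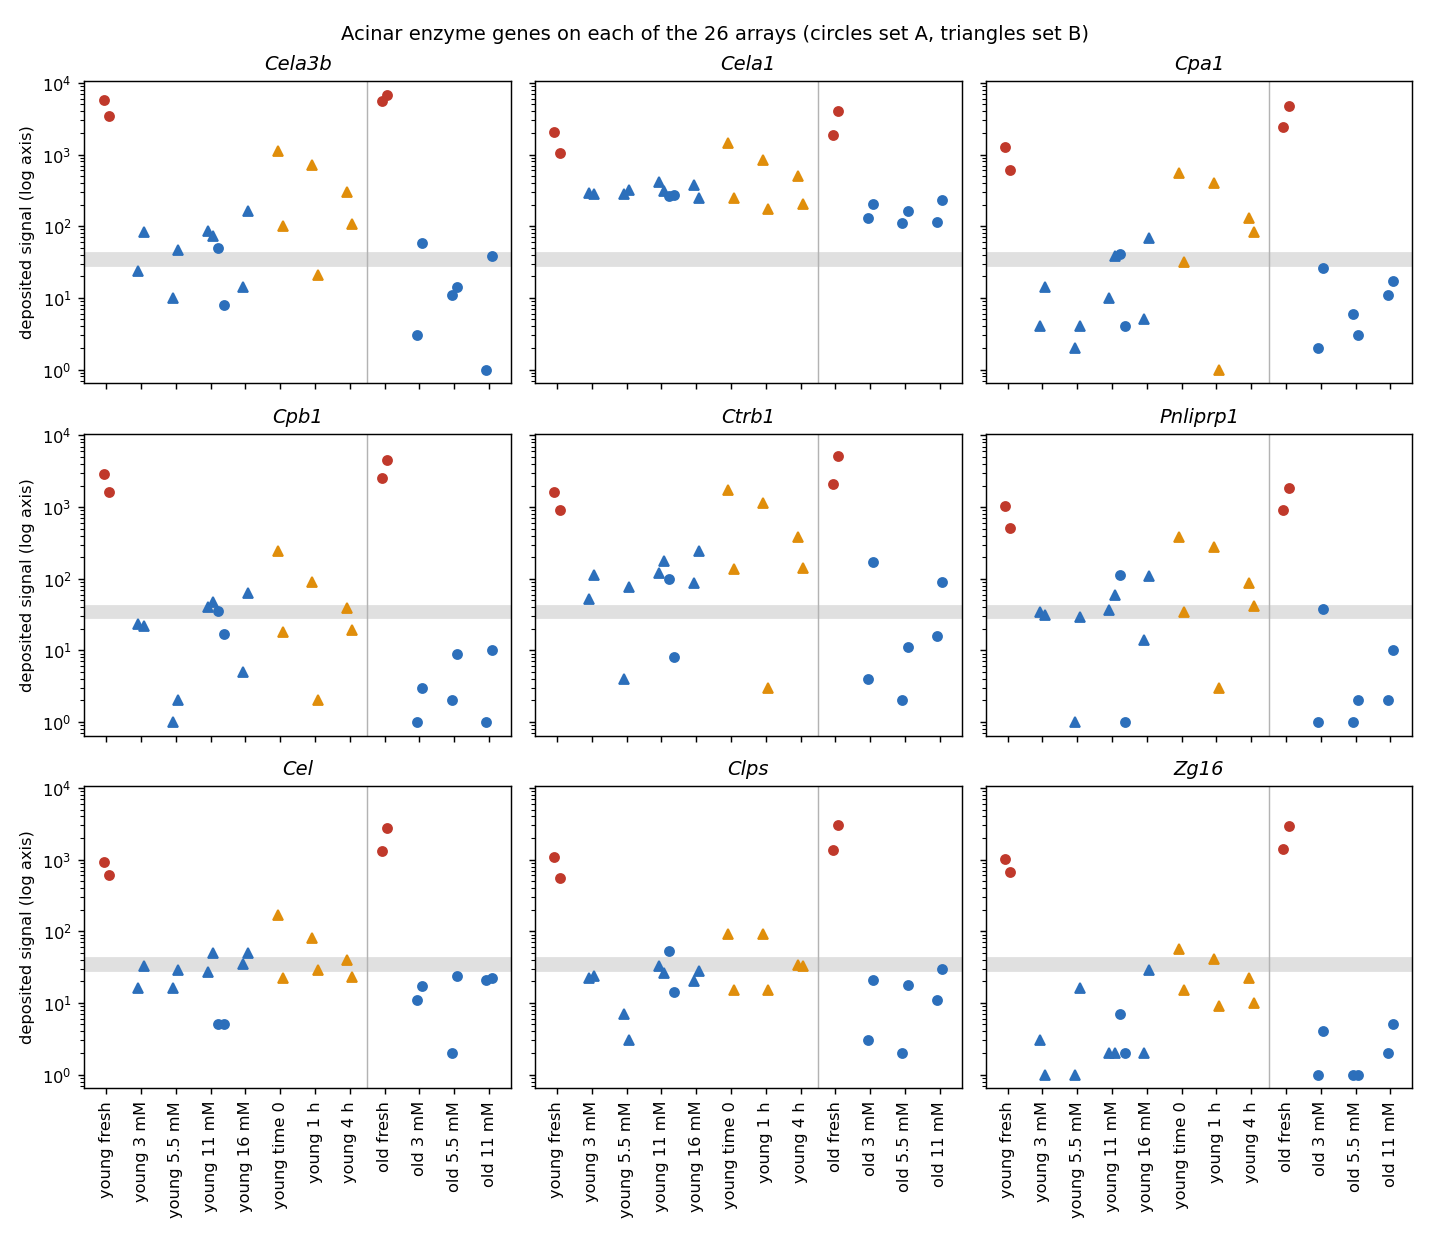
Deposited signal of each of the 9 acinar enzyme genes on the 26 arrays (log axis), by group, with red for fresh, blue for cultured 2 days and orange for the time course; circles are set A, triangles set B, and the grey band is the range of the array medians, 28 to 42. The 4 fresh arrays lie above every cultured array in all 9 panels, and at time 0 replicate 1 lies far above replicate 2.

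Culture was compared with the fresh state within array set A. In old islets all 9 genes fell at 11 mM glucose, with a median change of -5.94 on the log2 scale, where 2.77% of all genes fell. In young islets 8 of 9 fell at 11 mM, with a median change of -4.74, where 2.51% of all genes fell, and the remaining gene was Ctrb1. The median change of all genes was 0.02 and 0. Among the 12580 genes ordered by the size of the fall, the 9 took places 1 to 24 in old islets and 1 to 37 in young islets, with Cela3b first and Cela1 last of the 9 in both. Changes are on the scale log2(signal + 16), which understates the fall of dim genes. Where a gene was below the array median on every cultured array of a group, its fall is also given as a lower bound, with those arrays set to their median.

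The elastases were the extremes. Cela3b encodes an elastase-like serine protease. Its signal was 5565 and 6827 in fresh old islets and 5735 and 3415 in fresh young islets, against 1 and 39 in old and 50 and 8 in young islets at 11 mM. The groups lay far apart at both ages, and the change was -7.66 (SE 1.13, adjusted p = 0.000161) in old and -6.80 (SE 1.13, adjusted p = 0.000736) in young islets. Its other 3 probe sets changed by -6.60 to -4.91 in old islets and by -5.20 to -3.24 in young islets. The probe set used has the suffix _x_at, by which Affymetrix marks sets that hold probes shared with other sequences. Cela1 encodes elastase 1, another serine protease of pancreatic juice. It gave 1869 and 4005 in fresh old, 2039 and 1061 in fresh young, 115 and 232 in cultured old and 265 and 269 in cultured young islets. Cela1 alone among the 9 stayed above the array median on all 26 arrays. It changed by -3.93 (SE 0.64, adjusted p = 0.000491) in old and by -2.39 (SE 0.64, adjusted p = 0.0374) in young islets. The call in young islets ended when any 1 of the 4 arrays was left out (adjusted p = 0.0595 to 0.289).

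The carboxypeptidases trim amino acids from the C-terminal end of peptides. Cpa1, which favours aromatic and aliphatic residues, was at 2399 and 4738 in fresh old and 1295 and 602 in fresh young islets, and at 11 and 17 in old and 41 and 4 in young islets at 11 mM. It fell at least 99.2-fold in old islets, with a change of -6.83 (SE 1.08, adjusted p = 0.000367), and the change in young islets was -4.74 (SE 1.08, adjusted p = 0.0131). Without young 11 mM replicate 4 or fresh young replicate 1 the call in young islets was lost (adjusted p = 0.161 and 0.139). Cpb1, which favours basic residues, was at 2517 and 4588 in fresh old and 2879 and 1641 in fresh young islets. At 11 mM it was at 1 and 10 in old and 36 and 17 in young islets, all below the array medians. The change was -7.34 (SE 0.75, adjusted p = 1.63e-06) in old islets, a fall of at least 99.9-fold, and -5.72 (SE 0.75, adjusted p = 4.96e-05) in young islets, a fall of at least 55.8-fold.

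Ctrb1 encodes chymotrypsinogen B1, the precursor of a protease that cuts after aromatic residues. Its signal was 2072 and 5089 in fresh old and 1621 and 923 in fresh young islets. At 11 mM it was 16 and 91 in old islets and 98 and 8 in young islets, so the replicates of each age were far apart in culture. The change was -5.80 (SE 1.40, adjusted p = 0.015) in old islets, where leaving out old 11 mM replicate 1 or either fresh array ended the call (adjusted p = 0.0601 to 0.123). In young islets it was -4.57 (SE 1.40) and did not pass (adjusted p = 0.0759, and 0.00044 to 0.451 over the alternatives), although the groups did not overlap.

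The genes of fat digestion moved like those of the proteases. Cel encodes the bile salt-dependent carboxyl ester lipase. It was at 1315 and 2752 in fresh old and 923 and 613 in fresh young islets, and at 21 and 22 in old and 5 and 5 in young islets at 11 mM. Every cultured value was below its array median. Cel fell in old islets by at least 56-fold, a change of -5.68 (SE 0.54, adjusted p = 5.91e-07). In young islets it fell by at least 19.3-fold, a change of -5.19 (SE 0.54, adjusted p = 2.15e-06). Clps encodes colipase, the cofactor that anchors pancreatic lipase to bile-covered fat droplets. Its signal was 1354 and 3035 in fresh old, 1096 and 550 in fresh young, 11 and 30 in cultured old and 53 and 14 in cultured young islets. The change was -5.86 (SE 0.58, adjusted p = 1.08e-06) in old islets, a fall of at least 59.6-fold, and -4.12 (SE 0.58, adjusted p = 0.000117) in young islets. Its other probe set changed by -6.41 and -4.62.

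Pnliprp1 encodes a pancreatic protein related to lipase in sequence. It was at 915 and 1873 in fresh old and 1029 and 505 in fresh young islets, and at 2 and 10 in old and 112 and 1 in young islets at 11 mM. The 2 cultured young arrays thus spanned the whole range of cultured values, 1 to 112. Pnliprp1 changed by -5.94 (SE 1.07, adjusted p = 0.00135) in old islets, a fall of at least 38.5-fold, and by -3.98 (SE 1.07, adjusted p = 0.0379) in young islets. The call in young islets was lost without young 11 mM replicate 4, fresh young replicate 1 or fresh young replicate 2 (adjusted p = 0.435, 0.246 and 0.0849).

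Zg16 encodes a lectin-like protein of the zymogen granule membrane and is no enzyme. It was at 1400 and 2924 in fresh old and 1033 and 661 in fresh young islets, and at 2 and 5 in old and 7 and 2 in young islets at 11 mM. On all 16 arrays of islets cultured for 2 days it was below the array median, with a highest value of 29. Zg16 fell in old islets by at least 59.5-fold, a change of -6.71 (SE 0.47, adjusted p = 6.11e-09). In young islets it fell by at least 21.2-fold, a change of -5.37 (SE 0.47, adjusted p = 1.87e-07). Its other probe sets changed by -5.38 and -6.47 in old and by -3.99 and -4.97 in young islets, and the one used has the suffix _x_at.

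**Figure D2:**
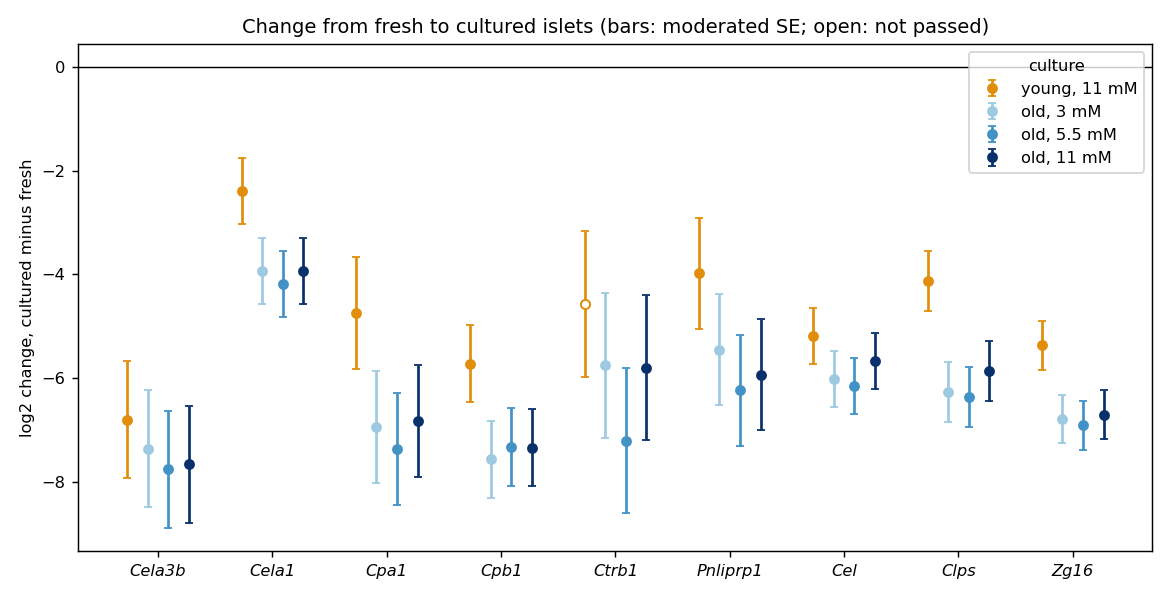
Change of each acinar enzyme gene from fresh to cultured islets of array set A, on the scale log2(signal + 16), with the moderated standard error of limma as bars; filled points passed an adjusted p under 0.05. All points lie below 0, and only Ctrb1 in young islets is open.

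Old islets were also compared with the fresh state at 3 and 5.5 mM glucose. At 3 mM all 9 genes fell with a median change of -6.27, from -7.57 for Cpb1 to -3.94 for Cela1, where 18.5% of all genes fell. At 5.5 mM all 9 fell with a median change of -6.91, from -7.76 for Cela3b to -4.18 for Cela1, where 8.33% of all genes fell. These comparisons use the same fresh arrays as that at 11 mM, and 5, 8 and 6 of the genes were below the array median on both arrays at 3, 5.5 and 11 mM. The call of Ctrb1 at 3 mM was lost without old 3 mM replicate 1 (adjusted p = 0.08). In none of the 4 comparisons did the fresh and cultured arrays of any of the 9 genes overlap, while the share of all genes that were lower without overlap was 23.6% in young islets at 11 mM and 22%, 38.2% and 32% in old islets at 11, 3 and 5.5 mM. Centring each array on its median raised the share of calls that are higher from 40% to 52.4% in young islets at 11 mM, and from 50.2% to 70.6%, 47.4% to 64.5% and 51.1% to 71.2% in old islets at 11, 3 and 5.5 mM. All 9 genes kept their sign under each alternative in these 4 comparisons.

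The change at 11 mM was more negative in old than in young islets for 9 of 9 genes, with a difference of -0.48 (Cel) to -2.09 (Cpa1) on the log2 scale. None of these differences passed the test of the interaction (limma, adjusted p = 0.641 to 0.939, 1 of 9 with an unadjusted p under 0.05), and 0.0238% of all genes did. The 95% interval of the difference was -5.29 to 1.11 for Cpa1 and -2.06 to 1.10 for Cel. The difference also holds the same fresh arrays as the comparison of fresh islets by age below. Its signs and those of that comparison are therefore not separate observations. At 11 mM itself, 0 of 9 genes differed between old and young islets in set A (limma, 0 of 9 with an unadjusted p under 0.05), where 15.6% of all genes differed. The differences ran from -1.11 (Pnliprp1) to 0.84 (Cel).

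Other acinar genes were taken from a list of 40 secretory proteins, of which 28 have a probe set of their own and 23 passed the filter. In old islets at 11 mM 19 of the 23 fell and 4 did not pass, with a median of -3.01. In young islets 14 of 23 fell and 9 did not pass, with a median of -2.01. Without the filter, 19 and 15 of 28 fell, where 1.81% and 1.93% of all genes fell. Ribonuclease Rnase1 changed by -6 (SE 0.37, adjusted p = 1.01e-09) in old and by -4.57 (SE 0.37, adjusted p = 8.28e-08) in young islets. Chymotrypsin-like Ctrl changed by -7.06 and -5.37, elastase Cela2a by -6.71 and -5.30, and the zymogen granule protein Sycn by -6.40 and -4.08, each in old and young islets in this order. Among the 6 smallest adjusted p of each comparison were also the lipase-related Pnliprp2 (-4.48 in old and -3.35 in young islets), Dmbt1 (-4.32 and -3.10), and in young islets Cuzd1 (-2.32), all of which passed. The 4 that did not pass in old islets, named after their values were seen, were Fgl1 (0.55), Amy1 (0.13), Gnmt (0.10) and Reg3b (-0.59). Amy1 is the amylase of salivary gland and liver, and the pancreatic amylase genes were not analysed here. The summed signal of the 23 genes was 13570 and 28358 in fresh old and 12564 and 6610 in fresh young islets, against 326 to 680 in old and 558 to 971 in young islets at 11 mM.

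Regulators of acinar cells were counted in the same way. Of 12 named transcription factors and regulators 6 passed the filter, and Ptf1a and Rbpjl, which encode the subunits that define PTF1, were not among them. In old islets at 11 mM 0 of these 6 changed (limma, 2 of 6 with an unadjusted p under 0.05). In young islets, where 211 of all 12580 genes rose, 1 of the 6 rose. The gene that rose was Nupr1, which encodes a stress-induced chromatin protein, at 0.89 (SE 0.21, adjusted p = 0.0164). Bhlha15, which encodes the factor MIST1 of secretory cells, differed by 0.55 (SE 0.31, adjusted p = 0.361) in old and -0.38 (SE 0.31, adjusted p = 0.636) in young islets, and Xbp1 by 0.04 and -0.10. Against fresh old islets, 18.5% of all genes fell at 3 mM and 8.33% at 5.5 mM, and 2093 and 1094 of the 12580 rose. In old islets at 3 mM 3 of the 6 regulators were lower and 1 was higher. At 5.5 mM 2 of 6 were lower and 1 was higher. The lower ones were Rab3d (-1.23), Bhlha15 (-1) and Mecom (-0.96) at 3 mM, and Mecom (-1.14) and Rab3d (-0.44) at 5.5 mM, and the higher one was Nupr1. Without the filter, in old islets 1 of 12 was lower at 11 mM (Rbpjl, -0.68) and 4 of 12 were lower at 3 and at 5.5 mM, Ptf1a among them (-1.37 and -1.43). The share of all genes that were lower without the filter was 1.81%, 12.5% and 5.29% at 11, 3 and 5.5 mM. Factors of this kind that other islet cells also make cannot be assigned to acinar cells in bulk RNA.

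Markers of other cell types were read beside the fall. In old islets at 11 mM 2.77% of all genes fell and 351 of the 12580 rose. In young islets 2.51% fell and 211 rose. Of 13 duct cell markers none fell at 11 mM at either age (limma, 1 in old and 0 in young islets lower with an unadjusted p under 0.05), and 2 rose in old and 1 in young islets. Their summed signal was 6828 to 7978 in fresh and 7830 to 8853 in cultured islets of set A. Of 11 endothelial markers 10 fell in old and 9 in young islets at 11 mM, with medians of -1.93 and -1.79. Their summed signal was 3510 to 3929 in fresh islets and 603 to 863 at 11 mM in set A. Of 12 beta cell markers none changed at 11 mM at either age (limma, 0 in old and 2 in young islets with an unadjusted p under 0.05). Nor did any of 12 markers of other endocrine cells (1 and 1). In old islets at 3 mM, where 18.5% of all genes fell, 9 of 12 beta cell markers were lower than fresh. Stellate and fibroblast markers fell and rose in like numbers, with 2 of 11 lower at both ages and 3 and 2 of 11 higher in old and young islets. Of 12 macrophage and leukocyte markers 1 fell at each age, and 2 rose in old islets. The part of any of these shifts in the values of the acinar enzyme genes was not tested.

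**Figure D3:**
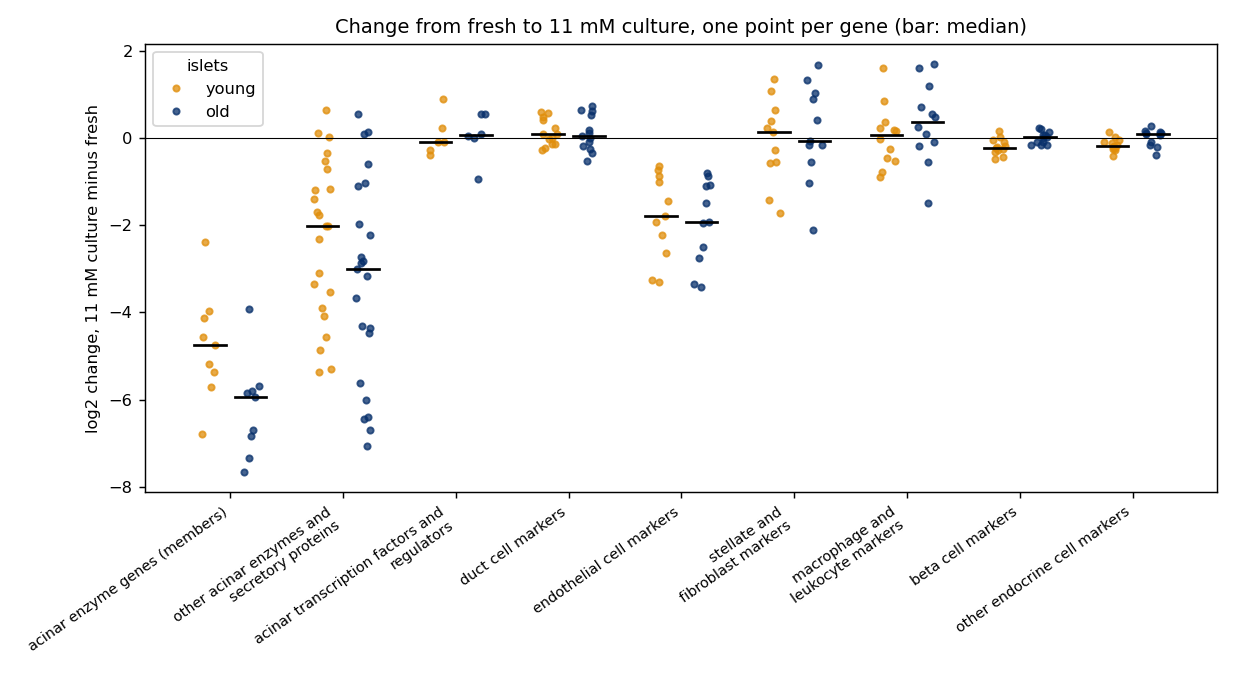
Change from fresh to 11 mM culture on the scale log2(signal + 16), with 1 point per gene past the filter, for the 9 acinar enzyme genes and 8 lists of other genes; orange is young, dark blue is old, and bars are medians. The acinar enzyme genes lie between -7.66 and -2.39, endothelial markers between -3.43 and -0.65, and the duct and endocrine medians between -0.23 and 0.10.

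Fresh islets of old and young mice were then set side by side. All 9 genes were higher on average in old islets, by 0.48 (Cela3b) to 1.91 (Cpa1) with a median of 1.28, and 0 of 9 passed the test (limma, 3 of 9 with an unadjusted p under 0.05). Of all genes 5.75% rose and 9.44% changed in either direction. Zg16 came nearest, with 2162 ± 1078 (SD, n = 2) in old and 847 ± 263 (SD, n = 2) in young islets, a difference of 1.28 (SE 0.47, adjusted p = 0.0896, 95% interval 0.30 to 2.25). Cel differed by 1.32 (SE 0.54, adjusted p = 0.128) and Clps by 1.37 (SE 0.58, adjusted p = 0.146). Cpa1, Ctrb1, Cel, Clps and Zg16 were higher without overlap, 5 of 9, and so were 28.2% of all genes. For Cela1, Cpb1, Pnliprp1 and Cela3b the lower old array lay below the higher young array. Cela3b differed by 1.15 to 1.61 in its other 3 probe sets. Centring each array on its median shifted all genes by 0.12 and turned 60.9% of calls higher into 83.6%, and Zg16 then passed (adjusted p = 0.043, and 0.00544 to 0.499 over its 14 alternatives, of which 9 did not pass).

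The replicates of fresh islets also differed from each other across all 9 genes. Old replicate 2 was above old replicate 1 for 9 of 9 genes, by 1.23-fold (Cela3b) to 2.46-fold (Ctrb1). Young replicate 1 was above young replicate 2 for 9 of 9, by 1.51-fold (Cel) to 2.15-fold (Cpa1). The median absolute difference of all genes between the arrays of a pair was 0.15 in old and 0.17 in young islets on the log2 scale. The signed difference of the 9 genes, replicate 2 minus replicate 1, had a median of 1.05 in old and -0.80 in young islets. The 23 other acinar genes moved alike, with 21 higher in old replicate 2 and 19 higher in young replicate 1. Beta cell markers had a summed signal of 54287 on old replicate 1 and 42359 on old replicate 2, and markers of other endocrine cells 85588 and 64134.

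Against 5.75% of all genes, 3 of the 23 other acinar genes rose with age in fresh islets. They were Pla2g1b, which encodes the pancreatic phospholipase A2 (1.72, SE 0.41, adjusted p = 0.0118), Rnase1 (1.26, SE 0.37, adjusted p = 0.036) and the trypsinogen gene Prss3 (2.36, SE 0.72, adjusted p = 0.0427). Prss3 was at 106 and 1401 in old and 153 and 23 in young islets, so the groups overlapped. Pla2g1b was at 69 and 257 against 40 and 22, and Rnase1 at 1435 and 3399 against 1207 and 688, without overlap. None of the 3 passed without fresh old replicate 2 (adjusted p = 0.227 for Pla2g1b, 0.40 for Rnase1 and 0.622 for Prss3) or without fresh young replicate 2 (0.111, 0.288 and 0.393 in this order). Next by adjusted p, and not passing, were Pdia2 (0.94, adjusted p = 0.0682), Reg3b of the regenerating family of secreted lectins (-2.32, adjusted p = 0.107) and Sycn (1.91, adjusted p = 0.115). Without the filter, 1 of 28 was higher (Pla2g1b) and 1 lower (Reg3a, -0.91, limma adjusted p = 0.0433). These counts are near the shares of all genes without the filter, 3.49% higher and 2.83% lower. Stellate and fibroblast markers were lower in old islets for 8 of 11 genes, with a summed signal of 2616 to 2855 in old and 5644 to 7572 in young islets. Of the markers of other endocrine cells 5 of 12 were lower, and of all 12580 genes 465 were. The part of these markers in the difference of the acinar enzyme genes was not tested.

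Glucose concentration during the 2 days of culture was compared within each age and array set, and the change from 3 to 11 mM was then compared between ages. None of the 9 genes passed in young islets at 5.5, 11 or 16 mM against 3 mM or in old islets at 5.5 or 11 mM against 3 mM. None passed in the difference between ages of the change from 3 to 11 mM (limma, in each 0 of 9 also with an unadjusted p under 0.05). That difference sets old islets of set A against young islets of set B, so age and array set cannot be told apart in it. The share of all genes called was 6.06%, 26.4%, 28.7%, 4.69%, 24.6% and 0.143% in this order. The medians of the 9 changes were -0.66, 0.43 and 0.33 in young and -0.24 and 0.08 in old islets, and -0.40 for the difference between ages. In young islets at 11 against 3 mM the 95% interval of Ctrb1 was wide, from -2.12 to 3.73. Changes within those bounds could not be resolved with these arrays. That of Zg16 was -0.97 to 0.97, but its signal was 3 and 1 at 3 mM and 2 and 2 at 11 mM in set B. These values lay below the array medians, so the interval does not bound a change of that transcript.

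Cela3b and Ctrb1 showed how far cultured replicates spread. In young islets Cela3b was at 24 and 84 at 3 mM, 10 and 46 at 5.5 mM, 87 and 72 at 11 mM in set B and 14 and 161 at 16 mM. Ctrb1 was at 52 and 111, 4 and 77, 121 and 177, and 87 and 241 at these concentrations. In old islets Ctrb1 was at 4 and 169 at 3 mM, 2 and 11 at 5.5 mM and 16 and 91 at 11 mM. For Cela3b at 16 mM in young islets and Ctrb1 at 3 mM in old islets, the 2 replicates alone covered most of the range across concentrations. Cela1 was steadier, at 281 and 293 at 3 mM, 282 and 315 at 5.5 mM, 309 and 412 at 11 mM in set B, and 249 and 371 at 16 mM in young islets. In old islets Cela1 was at 130 and 205, 112 and 164, and 115 and 232 at 3, 5.5 and 11 mM, below every value of cultured young islets, whose lowest of 10 was 249. At 3 and 5.5 mM age and array set cannot be told apart, and at 11 mM in set A the difference did not pass (-0.65, SE 0.64, adjusted p = 0.539).

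The remaining genes stayed near or below the array median in culture. Over the 16 arrays Cpa1 ran from 2 to 69 with a median of 8, and Cpb1 from 1 to 64 with a median of 9.5. Pnliprp1 ran from 1 to 112 with a median of 21.5, and Cel from 2 to 50 with a median of 21.5. Clps ran from 2 to 53 with a median of 20.5. These genes lay below the array median on 13, 13, 10, 12 and 14 of the 16 arrays, so that little of their order between concentrations is measured.

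The time course took islets from an overnight period at 3 mM to 11 mM. At time 0 the replicates were already far apart: replicate 1 was above replicate 2 for 9 of 9 genes, by 3.80-fold (Zg16) to 17.5-fold (Cpa1). Replicate 1 at time 0 was above all 8 arrays of young islets cultured for 2 days in the same array set for 9 of 9 genes, whereas replicate 2 lay within their range for 8 of 9, all but Cela1 (247, against a lowest value of 249). The other acinar genes differed in the same direction, with 22 of 23 higher in replicate 1 and a summed signal of 3320 against 1053. Beta cell markers were higher in replicate 1 for 11 of 12, with 28212 against 23104, and duct cell markers were higher in replicate 2 for 10 of 13, with 13581 against 10371.

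In replicate 1 most values were lower at each later time. Ctrb1 went from 1733 at time 0 to 1147 at 1 h and 379 at 4 h, and Cela3b from 1116 to 723 and 296. Cela1 went from 1442 to 826 and 500, and Cpa1 from 561 to 407 and 129. Cpb1 went from 242 to 91 and 39, and Pnliprp1 from 385 to 279 and 88. A lower value at each step was seen for 8 of 9 genes, and the exception, Clps, was at 91, 91 and 34. Cel went from 170 to 81 and 40, and Zg16 from 57 to 41 and 22. Between time 0 and 4 h all 9 genes were lower in replicate 1, by 2.59-fold to 6.21-fold, with a median of -1.86 on the log2 scale.

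Replicate 2 did not share this course. Ctrb1 was at 135, 3 and 140, Cela3b at 100, 21 and 107, and Cpa1 at 32, 1 and 83. Cela1 was at 247, 173 and 206, Cpb1 at 18, 2 and 19, and Pnliprp1 at 34, 3 and 42. Cel was at 22, 29 and 23, Clps at 15, 15 and 33, and Zg16 at 15, 9 and 10. At 1 h 7 of the 9 genes were lower than at time 0, and at 4 h 2 of the 9 were, with a median of 0.05 on the log2 scale. The other 7 genes ended the course of replicate 2 above their start by 0.04 (Cpb1 and Cel) to 1.04 (Cpa1) on the log2 scale. For Cpb1, Cel, Ctrb1 and Cela3b the difference was at most 0.08, too small to read as a rise.

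**Figure D4:**
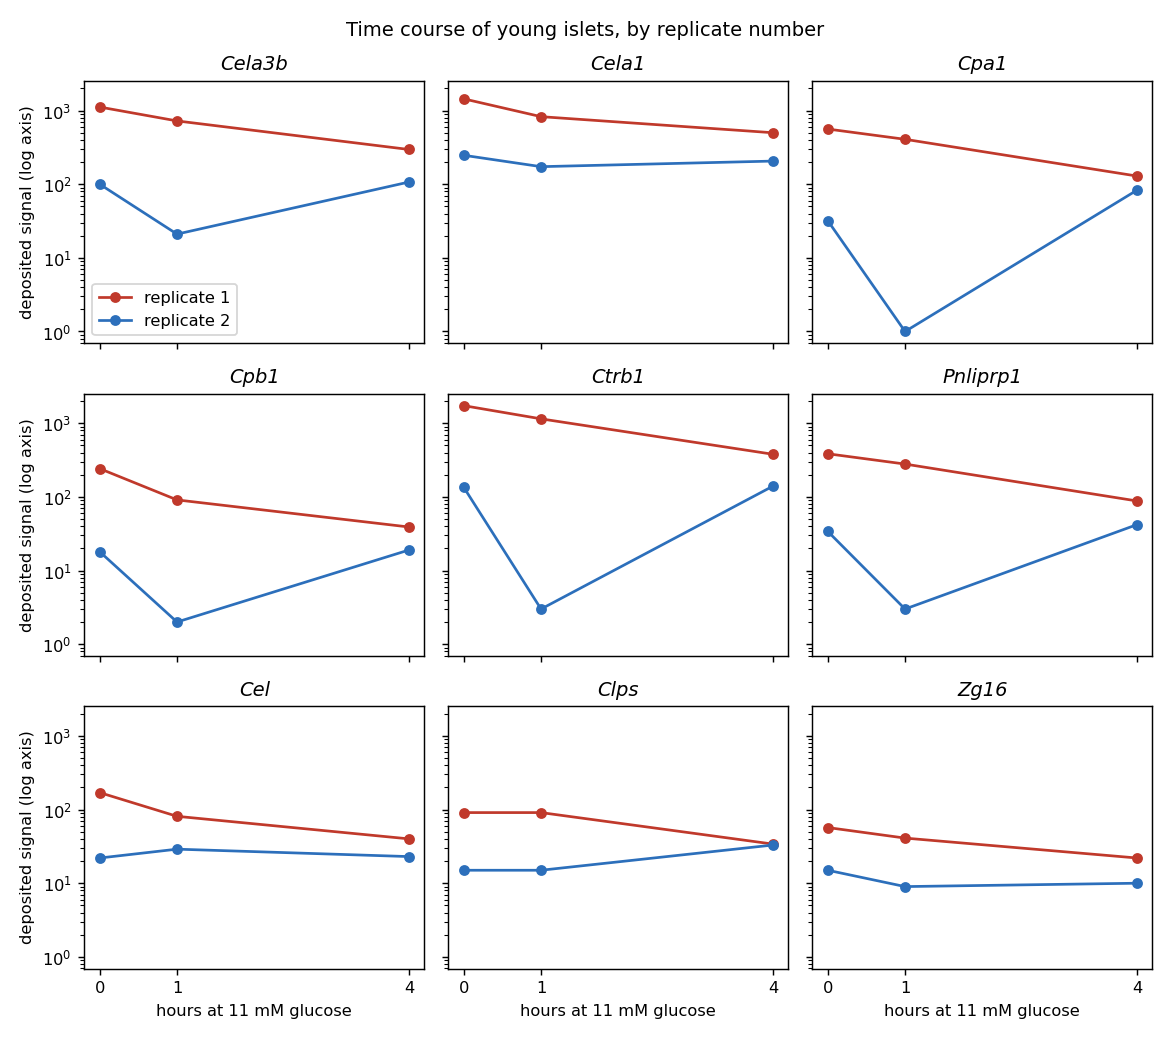
Deposited signal (log axis) of the 9 acinar enzyme genes in young islets at 0, 1 and 4 h after the change from 3 to 11 mM glucose, joined by replicate number, with replicate 1 in red and replicate 2 in blue. Replicate 1 lies above replicate 2 at every time in all 9 panels and is lower at 4 h than at time 0, while replicate 2 dips at 1 h for 7 of 9 genes.

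Tested over both replicates, 0 of 9 genes changed after 1 h (limma, adjusted p = 1 for each, 0 of 9 with an unadjusted p under 0.05), where 0.262% of all genes did. After 4 h 0 of 9 changed (adjusted p = 0.374 to 0.882, 0 of 9 with an unadjusted p under 0.05), where 11.4% of all genes did. The changes at 4 h were all negative, from -1.09 (Cpb1) to -0.22 (Clps). These tests did not pair the arrays by replicate number. Same-numbered arrays of the time course deviated together over all genes, and with the replicate number as a block Cela1 passed at 4 h (-0.87, adjusted p = 0.022, and 0.022 to 0.907 over its alternatives). Without time 0 replicate 2, Cpb1 (-2.56, adjusted p = 0.0476) and Cel (-1.99, adjusted p = 0.0214) passed. Since no islets stayed at 3 mM, glucose and hours in culture cannot be told apart here.

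Across the arrays the levels of the 9 genes went together. The Pearson correlation of each gene with the mean of the other 8 was 0.916 (Ctrb1) to 0.98 (Cela3b) over 26 arrays, on the scale log2(signal + 16). Without the 4 fresh arrays it was 0.80 (Cel) to 0.965 (Cela3b) over 22 arrays. These points share arrays, and the 9 genes were chosen as a set, so the values are a description. Within groups of cultured islets the difference between the 2 arrays had the same sign for 9 of 9 genes at 3 and at 11 mM in old islets, and for 8 of 9 at 5.5 and 16 mM in young islets. In old islets at 5.5 mM 7 genes were higher on one array and 1 on the other, with 1 tied. In young islets this split was 5 and 4 at 3 mM, 5 and 3 with 1 tied at 11 mM in set B, and 7 and 1 with 1 tied at 11 mM in set A.

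**Figure D5:**
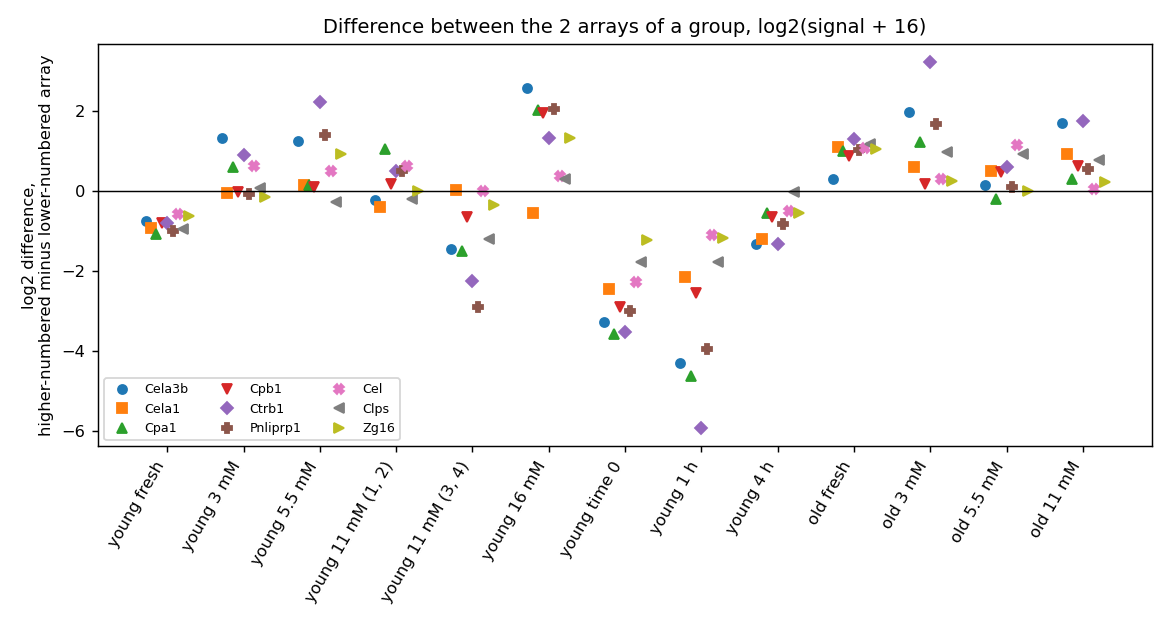
Difference between the 2 arrays of each group on the scale log2(signal + 16), the higher-numbered minus the lower-numbered array, for the 9 acinar enzyme genes. All 9 points lie below 0 in fresh young islets and at each time of the time course, and above 0 in fresh old islets and in old islets at 3 and 11 mM.

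The genes whose profile over the 26 arrays was most like the mean of the 9 were ranked by Pearson correlation on the same scale. The first 8 were Cela2a (0.993), 2210010C04Rik (0.988), Sycn (0.983), Dmbt1 (0.97), Pnliprp2 (0.969), Ctrl (0.969), Prss2 (0.966) and Reg1 (0.95). All but 2210010C04Rik were on the list of other acinar genes. From rank 11 to rank 30 only Cuzd1 was on that list. Those named here were picked after their values were seen: Dlc1 (0.929), the immediate early genes Egr1 (0.92) and Fos (0.896), and Kdr (0.906) and Ptprb (0.888), which endothelial cells express. Trypsinogen genes such as Prss2 are close copies of each other, and a probe set annotated to a single one of them can also hybridise with its relatives.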

How the data were processed

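Total RNA of mouse pancreatic islets was measured on 26 Affymetrix arrays, with 50 ng amplified over 2 rounds of cDNA synthesis per the labels' protocols. The authors deposited linear intensity per probe set, computed by MAS5 according to the submitters' processing notes; its version is not given in the sources used here, and detection calls were not used. The number of arrays limits the precision. Probe sets were named by the platform annotation, with symbols updated through a table of assembly GRCm38.p6. Intensities were taken as log2(value + 16), a probe set had to exceed its array's median on 2 or more of 26 arrays, and the brightest stood for each gene. A model with 13 means (12 groups, with young islets at 11 mM divided by array set) was estimated in R 4.3.3 (limma 3.58.1, intensity trend), and 16 contrasts were adjusted by Benjamini-Hochberg at 0.05 over 12580 genes. The pipeline was tested on simulated data.

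The array set was read from the Gapdh 5′/3′ control ratio, at a boundary of 0.5. Deviations of same-numbered arrays correlated at 0.0556 to 0.196 over 6 pairs of old groups, which were not taken as paired. They correlated at 0.169 to 0.417 over 6 pairs among young cultured groups of set B, and at 0.551 to 0.63 over 3 pairs of the time course. The last 2 were judged to be paired, although the ranges of old and young cultured groups overlap. For the 9 genes, same-numbered old arrays deviated in the same direction for 9 of 9 between fresh and 3 mM, fresh and 11 mM, and 3 and 11 mM. For each other pair of old groups it was 7 of 9. The 9 genes vary together, so these are not independent signs. The main model holds group means alone and no pairing. Pairing entered only the alternative with a replicate block. The enzyme genes and lists were chosen with earlier results of these data known. The genes named are the 9 measured ones and, from the other acinar genes, the 6 with the smallest adjusted p in fresh islets by age and in each 11 mM culture comparison; any other was named after its values were seen. Alternatives were the offset, the filter, the scaling, the probe set rule, the trend, the array set, the replicate block and leaving out each array.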

Additional observations from a re-analysis of the deposited data

Results flagged for a closer look

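By a gap criterion (Dixon) that chance meets in about 1 of 20 groups of 4, a single result stood out. Zg16 in young islets at 11 mM had signals of 2, 2, 7 and 2, so the gap between the highest array and the nearest other took up the whole range (ratio 1). All 4 values were below the array median, where the order of values is not measured.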

How the results depend on the processing

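In the 4 comparisons of culture with fresh islets every sign was kept in 126 of 126 values of each. In young islets at 11 mM the count of genes that fell was 8, 6 to 9 under other settings, and 5 to 7 leaving out each array in turn, with 5 without young 11 mM replicate 4 and without fresh young replicate 1. In old islets leaving out each array gave 8 to 9 at 11 mM, 8 to 9 at 3 mM and 9 at 5.5 mM. Fresh old against young islets, with 0 genes called, gave 3 with an offset of 64 and 1 with each array centred on its median. It gave 1 with the mean over probe sets and 3 with only the arrays of set A. The replicate block gave 5 (Cela1, Cpa1, Cel, Clps and Zg16). Over all genes the old numbers were not taken as paired, though the 9 genes mostly deviated together between same-numbered old arrays. At 4 h the replicate block gave 1 and leaving out each array 0 to 2. Between array sets at 11 mM, an offset of 1, quantile normalization, centring and the replicate block each gave 1 (Cel). The block also called Ctrb1 in young islets at 11 mM (-4.57, limma adjusted p = 0.00044), so 9 of 9, and it changed no call of the 9 genes beyond those named here. The block had no term for either group of that comparison and left the change as it was. Only the estimate of the spread shared by all groups differed there. The cause of the other changed calls was not tested. Of 2061 values of single genes, 18 lost and 23 gained a call and none reversed with one. Over all genes, the count called was 1188 (266 to 2104 over settings and left-out arrays) for fresh islets by age, 527 (287 to 946) for young culture at 11 mM, 699 (306 to 1282) for old culture at 11 mM, 2142 (905 to 3080) at 5.5 mM, 4415 (2857 to 5261) at 3 mM and 1428 (621 to 2152) at 4 h. Signal over background limits the cultured values, most of which lay below the array median, and a left-out array leaves a group with 1 sample assumed to vary like the others.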
